A study of Equus caballus with 26 samples.

Results

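Heat shock proteins are molecular chaperones, and 10 of their genes were followed here in the blood of horses before and after an endurance ride: *HSPA1A*, *HSPA5*, *HSPA8*, *HSPH1*, *HSP90AA1*, *HSP90AB1*, *HSPD1*, *HSPE1*, *DNAJB1* and the transcription factor gene *HSF1*. The genes were given as a list and were looked up on the array by gene name, by the probe description or by the study's additional files, and the brightest probe stood for each gene. The array held 9 of the 10 among its 24415 gene names, and *HSPE1* had no probe that could be named in this way. All probes of the 9 genes were well above background on all 26 arrays and none was saturated on any of them.

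The horses were Arabian or half-Arabian athletes, females and geldings, entered in long-distance endurance competitions in France, and the labels give every one the breed Autre, which is French for other. Whole blood was drawn at rest before the ride (T0) or right after its end (T1), and its RNA was hybridised to Agilent arrays of a single colour. The experimental set, labelled training, held 3 geldings, horses 2, 32 and 41, each measured at T0 and at T1. The validation set held 7 horses at T0 (3 females and 4 geldings) and 13 other horses at T1 (3 females and 10 geldings), so that no horse of that set was measured at both times. Ages of single horses, body temperature and air temperature were not used here, so the ride as a whole, with its exertion and any heat, separates T1 from T0, and in the validation set the animals differ as well. By the study's methods, all validation horses sampled at T1 completed the ride, while most of those it sampled at T0 later failed a veterinary check, so that the outcome of the ride also differed between the times in that set, and its part was not tested.

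Chaperones bind unfolded or partly folded proteins and help them reach or regain their shape. HSP70 proteins bind short stretches of a client under the control of J proteins, which start their ATP cycle, and of nucleotide exchange factors, which reset it, and HSP90 proteins take over clients such as kinases and steroid receptors. When unfolded proteins accumulate, as in heat, the heat shock factor HSF1 is released from its chaperone partners and switches on the inducible genes of the family, and exercise and fever are known to raise inducible HSP70 in leukocytes. The endoplasmic reticulum and the mitochondria hold chaperones of their own, which answer to other signals.

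The probes were DNA of 60 bases taken from the scanner files, and those that matter for telling the family apart are shown first, 5′ to 3′, with positions as given in those files, whose headers name the build EquCab1. The brightest probe of *HSPA1A*, at chr20:24907273-24907332 on the plus strand, is set against probes of its relatives *HSPA1L* (chr20:24891783-24891842, minus strand) and *HSPA5* (chr25:9592046-9592105, plus strand), in which capitals mark the bases shared with *HSPA1A* in the best alignment without gaps.
HSPA1A: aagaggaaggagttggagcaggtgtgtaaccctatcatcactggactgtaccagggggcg
HSPA1L: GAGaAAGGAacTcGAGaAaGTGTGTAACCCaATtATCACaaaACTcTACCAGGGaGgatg
HSPA5: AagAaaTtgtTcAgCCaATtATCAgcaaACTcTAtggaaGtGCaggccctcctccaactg
The probe of *HSPA1L* matched that of *HSPA1A* at 43 of 58 aligned bases (74.1%), and the probe of *HSPA5* matched it at 21 of 44 (47.7%). *HSPA1A* has a near-identical copy, *HSPA1B*, and the reference table gives the accession of this probe to that copy, so the signal of both is read here under the name *HSPA1A*.

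Further probes of the list are shown with capitals on the longest run of bases shared with a probe of any other gene. Genes were told apart by symbol, or by gene name where there was none. They belong to a second part of *HSPA1A* (chr20:24905789-24905848, plus strand), to *HSP90AA1* (chr24:43295683-43296020, minus strand, 338 bases of genome for 60 of probe), to a dimmer probe of *HSP90AB1* (chr20:36563044-36563384, plus strand), to *DNAJB1* (chrUn:299994597-299994656) and to *HSF1* (chrUn:227067662-227067796, minus strand). The levels and tests of *HSPA1A* below come from its first probe, and those of *HSP90AB1* from a brighter probe that is not shown.
HSPA1A second probe: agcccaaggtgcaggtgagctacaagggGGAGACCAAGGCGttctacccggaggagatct
HSP90AA1: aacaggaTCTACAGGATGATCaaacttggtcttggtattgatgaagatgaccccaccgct
HSP90AB1: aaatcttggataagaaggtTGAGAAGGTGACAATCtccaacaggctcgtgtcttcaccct
DNAJB1: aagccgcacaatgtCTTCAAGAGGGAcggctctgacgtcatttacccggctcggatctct
HSF1: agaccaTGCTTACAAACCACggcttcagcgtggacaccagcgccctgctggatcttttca
The longest run that any probe of the 9 genes shared with a probe of another gene, told apart in this way, was 16 bases, between *HSP90AB1* and *AMMECR1L*. *HSP90AA1* and *HSP90AB1*, the inducible and the constitutive cytosolic HSP90, thus shared no long run on this array. The brightest probe of *HSPA5* (chr25:9592124-9592183, plus strand) contains acaaagatgagttgTAG, in which the capitals are the stop codon that follows the retention signal of this chaperone of the endoplasmic reticulum.

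Levels are given as the log2 of the processed signal minus the 75th percentile of the array, so that 0 is the 75th percentile, and a difference of 1 is a doubling. Per array, 60.4% to 75.4% of all probes rose clearly above background (median 68.4%), and precision is limited by how many arrays there are. They were scanned on 8 days and lay on 18 slides. One scan day, called scan day 2 here, held T1 arrays of validation horses 4, 55 and 62 and no T0 array. Validation horse 34 at T1 had an array of a single scan pass, with 431 saturated spots. Blood markers followed the ride in both sets: in the validation set, 10 of 10 T cell genes and 6 of 7 B cell genes were under-expressed at T1, and 6 of 7 neutrophil genes were over-expressed. The summed level of the neutrophil genes, the log2 of the sum of their scaled signals, lay between 7.10 and 9.37 at T0 and between 8.68 and 10.79 at T1, and that of the T cell genes between 4.66 and 5.93 at T0 and between 4.08 and 4.90 at T1. In the experimental set, 6 of 10 T cell genes were under-expressed and 4 of 7 neutrophil genes over-expressed, with neutrophil sums of 6.41 to 8.89 at T0 and 9.45 to 9.65 at T1. Of the 5 skeletal muscle genes, 2 could be tested and neither passed in either set. In whole blood, fewer cells of a type and less RNA per cell cannot be told apart, and the part that the blood cells had in the chaperone values was not tested.

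In the experimental set, 2 of the 9 genes passed an adjusted p of 0.05 (limma, adjusted over 17490 gene names), *HSPA1A* and *HSPH1*, both over-expressed at T1. Of all gene names tested, 10.3% passed (1794), 6.22% over-expressed and 4.04% under-expressed. On the 2 scan days that held a T1 array of an experimental horse and the T0 array of another, the T1 array was higher by 1.31 and 0.96 for *HSPH1*, and *HSPA1A* differed by 1.07 and −0.02. In the validation set, 5 of the 9 passed (limma, 17405 gene names), 4 over-expressed (*HSPA1A*, *HSPH1*, *HSP90AA1*, *HSPA5*) and 1 under-expressed (*HSP90AB1*), where 44.2% of all gene names passed (7692), 20.2% over-expressed and 24% under-expressed. The total of 5 of 9 was close to that background, while the over-expressed share, 4 of 9, stood above the 20.2% of all gene names. With 9 genes, chosen with earlier results of these data known, this difference in share was not tested. The 4 calls also depended on the processing. With quantile normalization, *HSPA1A* and *HSP90AA1* missed the threshold (adjusted p = 0.058 and 0.0627 in limma). With scan day as a term, all 4 missed it (adjusted p between 0.0598 and 0.335 in limma), while 3368 of 17405 gene names were over-expressed. The median change of all gene names tested was 0.03 in the experimental and −0.07 in the validation set.

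**Figure D1:**
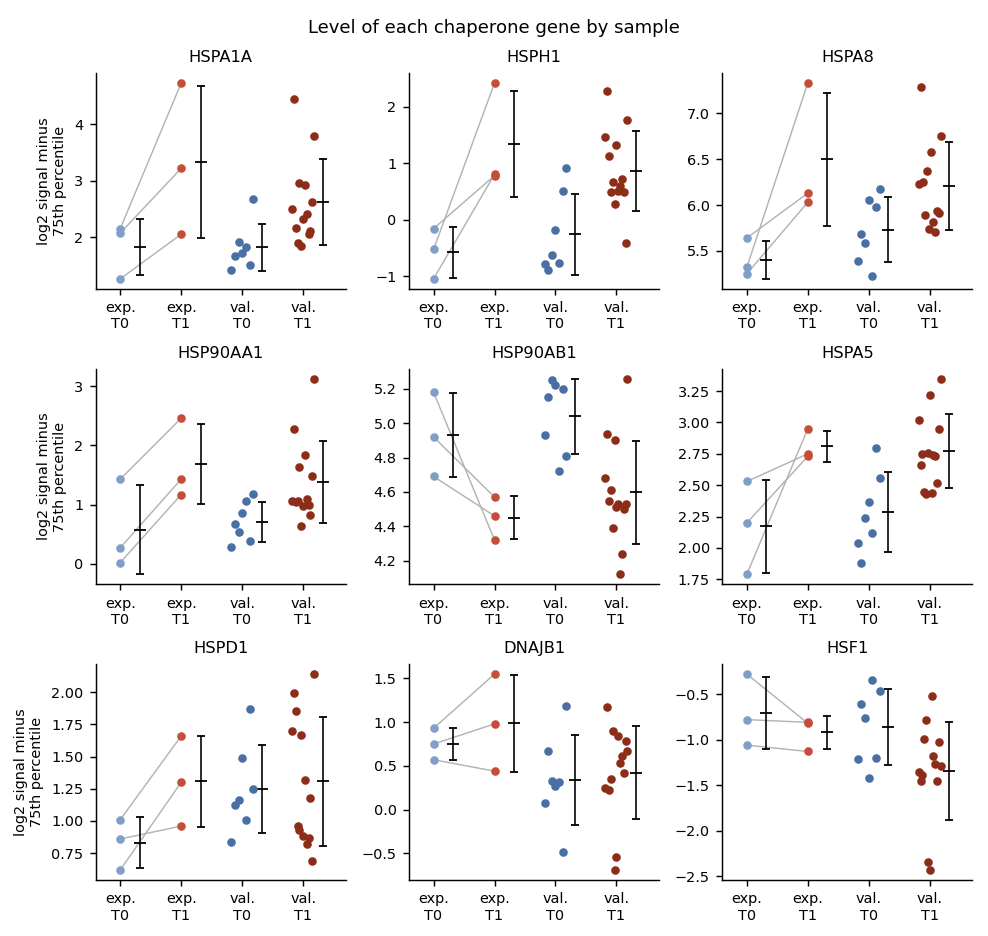
Level of each of the 9 chaperone genes (log2 signal scaled to the 75th percentile of the array, a separate scale for each gene) in the experimental (exp.) and validation (val.) sets at T0 and T1. Points are horses, grey lines join the same horse, and bars give the mean ± SD. *HSPA1A* and *HSPH1* were higher at T1 in all 3 experimental horses, and 10 of 13 validation horses at T1 lay below the lowest T0 level of *HSP90AB1*.

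*HSPA1A* encodes the stress-inducible cytosolic HSP70. Its level in experimental horses 2, 32 and 41 was 2.07, 2.15 and 1.26 at T0 and 3.22, 4.73 and 2.05 at T1. All 3 horses were higher after the ride, horse 32 by 2.58, horse 2 by 1.15 and horse 41 by 0.79, but the groups overlapped, since the T1 level of horse 41 lay below the T0 levels of the other two. The gene rose by 1.51 (SE 0.40, adjusted p = 0.0483 in limma). Among the validation horses the lowest, median and highest levels were 1.42, 1.72 and 2.68 at T0 (n = 7) and 1.84, 2.41 and 4.44 at T1 (n = 13). All 13 T1 horses lay above the T0 mean and 4 lay above the highest T0 horse, horse 47. The rise was 0.80 (SE 0.30, adjusted p = 0.0323 in limma), and the second *HSPA1A* probe differed by 1.67 and 0.71 in the 2 sets against 1.51 and 0.80 for the first. These calls were close to the threshold, and of the alternative settings 4 of 13 kept that of the experimental set and 21 of 34 that of the validation set. The call was lost in the experimental set without horse 2 (1.69, adjusted p = 0.132 in limma) or horse 32 (0.97, adjusted p = 0.194), and in the validation set without any of T0 horses 13, 14, 18, 29 and 40 (0.73 to 0.80, adjusted p between 0.0515 and 0.0696 in limma). With scan day as a term the validation change was 0.40 (adjusted p = 0.26 in limma), without scan day 2 it was 0.50 (adjusted p = 0.0465), and within the 5 scan days that held both times it was above 0 on 4, between −0.33 and 1.05.

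*HSPH1* encodes HSP110, which acts as a nucleotide exchange factor for HSP70 and holds unfolded clients in solution. Its level was −0.16, −0.53 and −1.05 at T0 and 0.78, 2.42 and 0.80 at T1 in experimental horses 2, 32 and 41. Every T1 level lay above every T0 level, and the rises were 0.94, 2.95 and 1.85. The share of all gene names with such a separation was not counted, for this gene or for *HSPA8*, *HSP90AB1* and *HSPA5* below. The gene rose by 1.91 (SE 0.41, adjusted p = 0.027 in limma), the largest change among the 9 genes in either set. Across the validation set the lowest, median and highest levels were −0.90, −0.62 and 0.92 at T0 and −0.41, 0.67 and 2.28 at T1. Of the 13 T1 horses, 12 lay above the T0 mean and 5 above the highest T0 horse, while horse 55 lay below the T0 mean. The rise was 1.13 (SE 0.31, adjusted p = 0.00593 in limma), and T1 was higher on 5 of 5 scan days, by 0.26 to 2.10. Without horse 2 or horse 32 the experimental value missed the threshold (2.40 and 1.39, adjusted p = 0.0523 and 0.0762 in limma), and with scan day as a term the validation value was 0.99 (adjusted p = 0.0598).

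*HSPA8* encodes HSC70, the cytosolic HSP70 that cells make without stress. Its level was 5.64, 5.32 and 5.25 at T0 and 6.13, 7.33 and 6.03 at T1 in experimental horses 2, 32 and 41. The T1 levels all lay above the T0 levels, and horse 32 again differed most, by 2.01 against 0.49 in horse 2 and 0.78 in horse 41. The difference of 1.09 (SE 0.38) did not pass in the experimental set (adjusted p = 0.096 in limma), and it was 0.63 without horse 32 (adjusted p = 0.409) and 1.25 without horse 41, where it passed (adjusted p = 0.0407). For the validation horses the lowest and highest levels were 5.23 and 6.18 at T0 and 5.71 and 7.29 at T1 (n = 12, since the spot of horse 55 was marked as an outlier and left out). The difference there was 0.48 (SE 0.21, adjusted p = 0.067 in limma), with 6 of 12 T1 horses above the highest T0 horse. It passed without T0 horse 47 (0.55, adjusted p = 0.0402 in limma), T1 horse 19 (0.52, adjusted p = 0.0497) or T1 horse 34 (0.52, adjusted p = 0.0492). It was smaller, and did not pass, at 0.31 without scan day 2 (adjusted p = 0.133 in limma), 0.23 with quantile normalization, with or without normexp background correction (adjusted p = 0.252 and 0.269), 0.15 with the deposited series values (adjusted p = 0.594) and 0.07 with the mean of the probes (adjusted p = 0.854). The probes of *HSPA8* did not move alike: 5 dimmer probes differed by 0.44 to 0.58 in the experimental set and by 0.04 to 0.10 in the validation set. Those 5 probes overlap each other in sequence and are not independent measurements. By their given positions, those at chr14:1219755-1219810 and chr14:1219756-1219919 lie apart from the others, which lie on chr7 like the brightest probe. Whether they read another transcript was not tested.

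*HSP90AA1* encodes the inducible form of cytosolic HSP90. Experimental horses 2, 32 and 41 had levels of 0.27, 1.43 and 0.02 at T0 and 1.43, 2.46 and 1.17 at T1. The groups overlapped because horse 32 was already high at T0, and the 3 horses differed by nearly the same amount, 1.16, 1.03 and 1.15. The difference of 1.11 (SE 0.31) lay just outside the threshold (adjusted p = 0.0532 in limma) and passed with normexp (0.94, adjusted p = 0.017), with the deposited series values (1.01, adjusted p = 0.0188) and with the filter set to every array (adjusted p = 0.026). Among the validation horses the lowest, median and highest levels were 0.28, 0.67 and 1.18 at T0 and 0.64, 1.06 and 3.13 at T1. The rise was 0.68 (SE 0.27, adjusted p = 0.0433 in limma), with 12 of 13 T1 horses above the T0 mean and 5 above the highest T0 horse. This call was kept by 15 of 34 alternative settings and was lost without T0 horse 13, 14, 15, 18 or 40 or T1 horse 4, 17, 24 or 55, each left out alone (0.61 to 0.70, adjusted p between 0.0553 and 0.0937 in limma). It was 0.41 without scan day 2 (adjusted p = 0.0692) and 0.30 with scan day as a term (adjusted p = 0.335), and T1 was higher on 3 of 5 scan days, between −0.29 and 0.95.

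*HSP90AB1*, the constitutive form of cytosolic HSP90, differed the other way. Its level was 5.18, 4.92 and 4.69 at T0 and 4.32, 4.57 and 4.46 at T1 in experimental horses 2, 32 and 41, and all T1 levels lay below all T0 levels. The difference of −0.48 (SE 0.32) did not pass in this set (adjusted p = 0.342 in limma). It was −0.29 without horse 2 (adjusted p = 0.665 in limma), −0.83 with quantile normalization (adjusted p = 0.107), and it passed at −0.85 with normexp (adjusted p = 0.0373) and at −0.86 with the deposited series values (adjusted p = 0.0388). Across the validation set the lowest, median and highest levels were 4.72, 5.15 and 5.25 at T0 and 4.12, 4.53 and 5.26 at T1. Of the 13 T1 horses, 10 lay below the lowest T0 horse and 1, horse 62, lay above the highest. The gene fell by 0.44 (SE 0.14, adjusted p = 0.0147 in limma), and T1 was lower on all 5 scan days, by 0.08 to 0.84 on the log2 scale. It fell by 0.67 to 0.72 with those 3 other normalizations. All 6 probes of the gene were lower at T1, by 0.42 to 0.62 in the experimental and by 0.40 to 0.59 in the validation set, although 5 of them are shifted by single bases along the same stretch.

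*HSPA5* encodes BiP, the HSP70 of the endoplasmic reticulum and a sensor of the unfolded protein response. Its level was 2.53, 2.20 and 1.79 at T0 and 2.75, 2.73 and 2.95 at T1 in experimental horses 2, 32 and 41. The T1 levels lay above all T0 levels and close to each other, and the difference of 0.64 (SE 0.33) did not pass (adjusted p = 0.235 in limma). It was 0.38 without horse 41 (adjusted p = 0.611 in limma) and 0.39 with normexp or with the deposited series values (adjusted p = 0.309 and 0.306). For the validation horses the lowest, median and highest levels were 1.88, 2.24 and 2.80 at T0 and 2.43, 2.74 and 3.35 at T1. All 13 T1 horses lay above the T0 mean, 4 of them above the highest T0 horse, and 5 of 7 T0 horses lay below the lowest T1 horse. The rise was 0.48 (SE 0.15, adjusted p = 0.0132 in limma), and 3 probes differed by 0.57 to 0.64 in the experimental and by 0.43 to 0.49 in the validation set. The probes with a given position lie close together, so the 3 may not be independent measurements. With scan day as a term the rise of 0.42 missed the threshold (adjusted p = 0.0851 in limma), and T1 was higher on 4 of 5 scan days, between −0.21 and 1.10.

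*HSPD1*, the mitochondrial chaperonin HSP60 that works with the product of *HSPE1*, did not pass in either set. Its level was 0.86, 1.01 and 0.62 at T0 and 0.96, 1.66 and 1.30 at T1 in the experimental horses, a difference of 0.48 (SE 0.32, adjusted p = 0.346 in limma). Validation levels ran from 0.84 to 1.87 at T0 and from 0.69 to 2.14 at T1, with a difference of 0.06 (SE 0.21, adjusted p = 0.837 in limma), which turned to −0.03 with scan day as a term and to −0.04 with the deposited series values. The T1 horses of this gene spread to both sides of the T0 horses, with 2 above the highest and 2 below the lowest.

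*DNAJB1* encodes HSP40, the J protein that starts the HSP70 cycle and a classical target of HSF1. Its level was 0.75, 0.93 and 0.57 at T0 and 0.98, 1.55 and 0.44 at T1 in experimental horses 2, 32 and 41, a difference of 0.24 (SE 0.32, adjusted p = 0.654 in limma) that was 0.05 without horse 32 and 0.42 without horse 41. Validation levels ran from −0.48 to 1.19 at T0 and from −0.69 to 1.17 at T1, with a difference of 0.08 (SE 0.24, adjusted p = 0.806 in limma), which turned to −0.17 with scan day as a term. The T0 and T1 horses thus covered almost the same range, and 9 of 13 T1 horses lay above the T0 mean.

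*HSF1* itself had levels of −0.78, −0.28 and −1.06 at T0 and −0.81, −0.82 and −1.13 at T1 in experimental horses 2, 32 and 41. Horse 32 was lower by 0.54 at T1 and the others hardly differed, which gave −0.21 (SE 0.32, adjusted p = 0.689 in limma) and −0.05 without horse 32 (adjusted p = 0.967). Among the validation horses the lowest, median and highest levels were −1.42, −0.76 and −0.35 at T0 and −2.43, −1.29 and −0.52 at T1, with 4 of 13 T1 horses below the lowest T0 horse. The difference of −0.48 (SE 0.23) did not pass (adjusted p = 0.0915 in limma), and a second probe also differed by −0.48. It passed with scan day as a term (−0.79, adjusted p = 0.0218 in limma) and without T1 horse 24 (−0.55, adjusted p = 0.0453), while it was −0.29 with normexp (adjusted p = 0.123) and −0.31 with the deposited series values (adjusted p = 0.125). T1 was higher on 1 of 5 scan days, between −2.08 and 0.11. The array reads the transcript of *HSF1*, not the release of its protein, through which the factor is known to be activated.

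**Figure D2:**
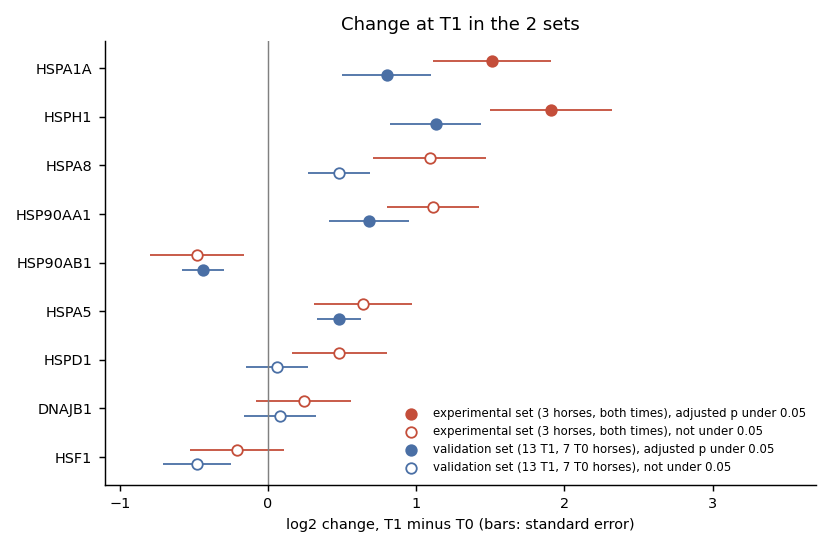
Change of the 9 chaperone genes (log2, T1 minus T0, with bars of 1 standard error) in the experimental set (3 horses at both times) and the validation set (13 T1 and 7 T0 horses), with filled points for an adjusted p under 0.05. *HSPH1* had the largest change in both sets (1.91 and 1.13), and *HSP90AB1* was the gene that passed below 0, in the validation set (−0.44).

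The change of each gene was then set against itself between the sets, in a model over the 26 arrays together in which horse was a random block. The validation change minus the experimental change ran from −0.78 (*HSPH1*, SE 0.65) to 0.04 (*HSP90AB1*, SE 0.28) over the 9 genes, and none passed (each adjusted p = 1 in limma). Of 17889 gene names tested for this difference, 0 passed (0%) and 99 had an unadjusted p under 0.05, and 0 passed under each of the other settings tried. The SEs ran from 0.28 to 0.68, the largest being that of *HSPA1A*, whose difference was −0.71. A difference between the sets of the size of the changes themselves was thus not detectable with 3 experimental horses, and the test does not show that the sets changed alike.

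The validation horses at T1 did not carry these changes evenly, and the following horses were chosen after their values were seen. Horses 4 and 62 held the 2 highest T1 levels in 6 of the 9 genes. They had 4.44 and 3.79 for *HSPA1A*, 2.28 and 1.76 for *HSPH1*, and 7.29 and 6.75 for *HSPA8*. For *HSP90AA1* the order was turned, with 3.13 in horse 62 and 2.28 in horse 4. Both arrays belonged to scan day 2, and both horses also had the highest summed levels of the neutrophil genes at T1 (10.79 and 10.75). Their arrays also had few probes clearly above background, 62% and 60.8% against a median of 68.4% over all arrays. The part of any of these in the levels was not tested. The third array of that scan day, horse 55, had the lowest T1 level of *HSPH1* (−0.41) and of *HSPD1* (0.69). Horses 19 and 21 had the lowest T1 levels of *HSF1* (−2.34 and −2.43) and of *DNAJB1* (−0.69 and −0.54). Horse 19 also had the lowest T1 levels of *HSPA1A* (1.84) and *HSP90AA1* (0.64). For *HSPH1*, horse 19 ranked 12 of 13 from the highest (0.27) and horse 21 ranked 4 (1.33). The array of horse 21 had the lowest share of probes clearly above background (60.4%), and that of horse 19 had 70.8%.

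**Figure D3:**
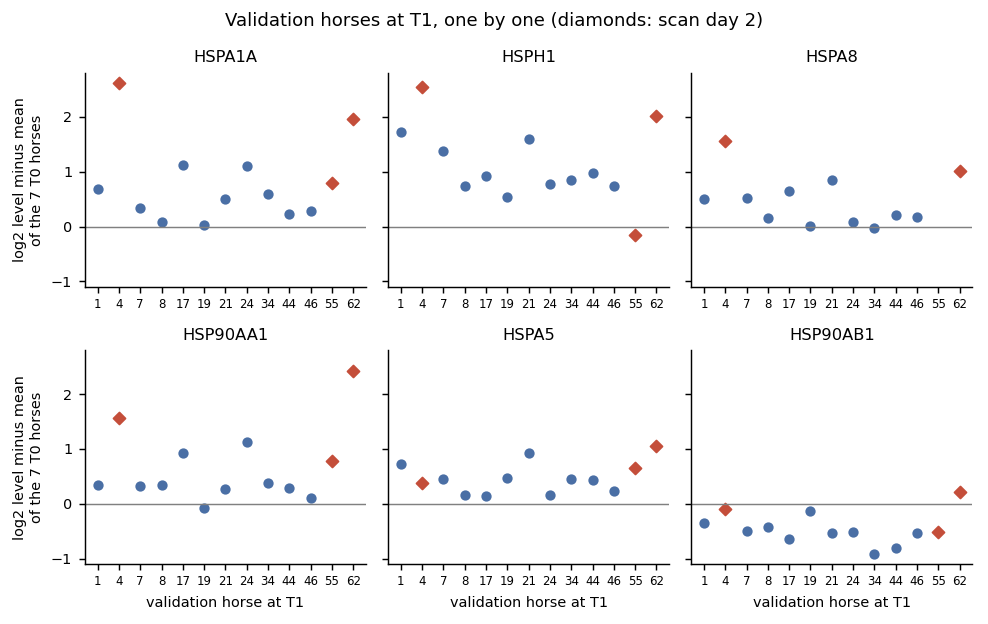
T1 level of each of the 13 validation horses minus the mean of the 7 validation horses at T0 (log2), for 6 chaperone genes. Diamonds mark the 3 horses of scan day 2. Horses 4 and 62 stood 2.62 and 1.97 above the T0 mean for *HSPA1A*, where the median of the 13 horses was 0.59, and 12 of 13 horses lay below the T0 mean for *HSP90AB1*. The point of horse 55 for *HSPA8* was an outlier spot and is left out.

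Among the 9 genes, the levels after the mean of each of the 4 groups was subtracted went together most in *HSPH1* and *HSPA8* (r = 0.895 over 25 arrays, without the outlier spot of horse 55) and, over 26 arrays, in *HSP90AA1* and *HSPA1A* (r = 0.843). *HSF1* and *DNAJB1* formed another pair (r = 0.749), and *HSF1* and *HSPA5* had the lowest value (r = −0.354). These are descriptions over arrays of 23 horses that share the scaling, the scan days and the blood cells of each array. Among 13224 gene names well above background and with a value on all 26 arrays, which leaves out *HSPA8*, those most like *HSPA1A* were *HSP90AA1*, *JMJD6* (r = 0.822) and *JUN* (r = 0.706), the last an immediate early transcription factor gene. Without the 2 arrays farthest from the median of *HSPA1A*, horse 4 at T1 and experimental horse 32 at T1, the 3 values were 0.841, 0.801 and 0.636. Those most like *HSPA5* were *HSP90B1* (r = 0.817), the HSP90 of the endoplasmic reticulum, *SEC23B* (r = 0.795), a coat protein gene of vesicles that leave it, and *JARID2* (r = 0.76). Among those most like *HSF1* were *STK25* (r = 0.964) and *GBA2* (r = 0.96), and without horses 19 and 21 at T1 the values were 0.932 and 0.94.

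The wider chaperone network was read from 10 gene lists, which held 134 further genes, 131 of them on the array. In the validation set, 122 were tested, and 11 were over-expressed and 28 under-expressed at T1 (median change −0.11, against −0.07 over all gene names tested). In the experimental set, 124 were tested, and 5 were over-expressed and 1 under-expressed (median −0.05, against 0.03). The shares of all gene names were 20.2% over- and 24% under-expressed in the validation set and 6.22% and 4.04% in the experimental set. In the validation set the further chaperone genes held a smaller share of over-expressed genes than all gene names. In the experimental set the 5 of 124 lay near the share of all gene names. The counts of the single lists below stand against the same shares, and whether a list differs from them was not tested.

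The HSP70 and HSP110 list had 4 genes over- and 1 under-expressed of 13 tested in the validation set (median change 0.18) and 3 over-expressed of 14 in the experimental set (median 0.75). Beside the genes described above, *HSPA4*, another HSP110 relative, rose by 0.37 in the validation set (SE 0.14, adjusted p = 0.032 in limma). *HSPA9*, the mitochondrial HSP70, fell by 0.38 (SE 0.13, adjusted p = 0.0185 in limma). *HSPA6*, an HSP70 gene that is known in humans to be silent without stress, rose by 2.02 in the experimental set (SE 0.39, adjusted p = 0.0187 in limma) and differed by −0.02 in the validation set (SE 0.59, adjusted p = 0.978). The difference between the sets, −2.04 (SE 1.20), did not pass (adjusted p = 1).

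Of the HSP70 co-chaperones and exchange factors, 5 of 13 were under-expressed in the validation set and 0 over-expressed (median −0.34). They were *BAG2*, *BAG3*, *BAG5*, *GRPEL2*, the mitochondrial exchange factor (−1.04), and *SIL1*, the exchange factor of BiP (−0.41). *BAG3* is itself a known target of HSF1 and fell by 0.92 (SE 0.33, adjusted p = 0.0252 in limma). Of the HSP90 family and co-chaperones, 4 of 18 were over- and 5 under-expressed in the validation set (median −0.29). Those over-expressed were *FKBP5*, *HSP90AA1*, *HSP90B1* (0.52) and *SUGT1* (0.53), and among those under-expressed were *HSP90AB1*, *TTC4* (−0.90), *NUDC* (−0.73) and *UNC45A* (−0.81), the last 3 known as HSP90 partners. In the experimental set, *FKBP5* was the 1 gene of 18 that passed.

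Of 35 J proteins tested, 3 were over-expressed (*DNAJC13*, *DNAJB6* at 0.55 and *DNAJC25* at 0.53) and 10 under-expressed in the validation set (median −0.13), led by the mitochondrial *DNAJA3* (−1.03) and *DNAJC11* (−0.96). Of all gene names tested in that set, 20.2% were over-expressed and 24% under-expressed. The cytosolic chaperonin and prefoldin, which fold actin and tubulin, had 4 of 14 under-expressed and 0 over-expressed (median −0.33): *PFDN2* (−0.60), *PFDN5* (−0.48), *CCT2* (−0.39) and *CCT6A* (−0.33). The mitochondrial chaperones and proteases had 5 of 13 under-expressed, with *CLPP*, a matrix protease subunit, at −0.90, and 1 over-expressed, *YME1L1* at 0.45 (median −0.34). None of the 14 chaperonin and prefoldin genes and none of the 13 mitochondrial genes passed in the experimental set.

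The list of the endoplasmic reticulum and the unfolded protein response had 4 of 25 over-expressed and 1 under-expressed in the validation set (median 0.09), of which *HSPA5*, *HSP90B1*, *EIF2AK3*, the stress kinase PERK (0.55), and *DDIT3* rose. The small heat shock proteins had 1 of 6 under-expressed, *HSPB11* (−0.66), and *HSPB1*, HSP27, differed by 0.46 (SE 0.23, adjusted p = 0.108 in limma). The 17 tested genes of the heat-inducible HSF1 targets divided into 3 over-expressed (*HSPA1A*, *HSPH1*, *HSP90AA1*) and 2 under-expressed (*BAG3* and *MRPL18*) in the validation set, with a median of 0.06. The shares of all gene names there were 20.2% and 24%. In the experimental set 2 of 17 were over-expressed (*HSPA1A*, *HSPH1*) with a median of 0.24. Of the heat shock factors and their regulators, 1 of 5 in the validation set and 1 of 6 in the experimental set were over-expressed, *HSBP1* in both, and *HSF2* differed by 0.15 and 0.27 without passing (adjusted p = 0.394 and 0.632 in limma).

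**Figure D4:**
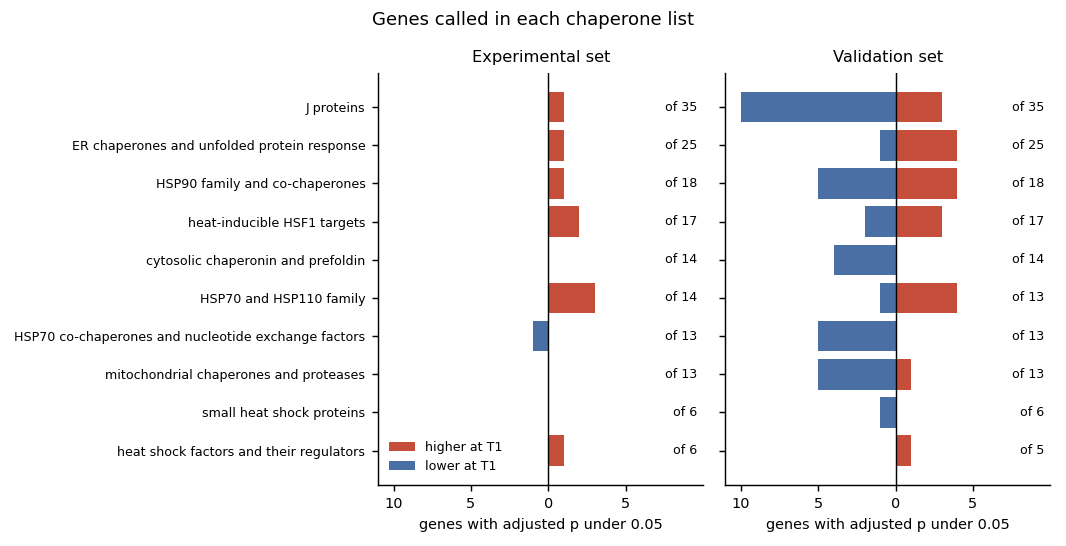
Number of genes of each chaperone list with an adjusted p under 0.05, over-expressed (right) or under-expressed (left) at T1, in the experimental and validation sets, with the number tested at the right. In the validation set J proteins had 3 over- and 10 under-expressed of 35, and the HSP70 and HSP110 list had 4 and 1 of 13. A gene can belong to several lists.

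By the rule for naming genes, those of the lists that passed in both sets in the same direction are given in full, and there were 5. A clear gap between their T0 and T1 horses follows in part from that choice. The share of all gene names with such a gap was not counted. *FKBP5* encodes FKBP51, an HSP90 co-chaperone of steroid receptors that glucocorticoids are known to induce. In experimental horses 2, 32 and 41 it rose by 4.07, 4.35 and 3.20, a mean of 3.87 (SE 0.35, adjusted p = 0.00141 in limma), and in the validation set by 3.60 (SE 0.41, adjusted p = 3.33e-06). All T1 horses of the validation set lay between 5.38 and 6.79, and 10 of 13 lay above the highest T0 horse, horse 47 at 5.91. No horse left out alone changed these calls.

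*HSBP1*, which encodes a small protein that binds HSF1 trimers and is known to dampen them, rose by 1.95, 1.90 and 1.71 in the experimental horses (1.86, SE 0.31, adjusted p = 0.0117 in limma) and by 1.63 in the validation set (SE 0.23, adjusted p = 2.09e-05). Its 13 T1 horses, from 1.63 to 3.79, all lay above the 7 T0 horses, the highest of which had 1.62. *DDIT3* encodes CHOP, a transcription factor of the late unfolded protein response. It rose by 1.35, 1.62 and 1.15 in the experimental horses (1.37, SE 0.31, adjusted p = 0.032 in limma) and by 1.45 in the validation set (SE 0.18, adjusted p = 6.95e-06), with 13 of 13 T1 horses above the highest T0 horse.

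*DNAJC13* encodes RME-8, a J protein of endosomes. It rose by 1.21, 1.14 and 1.41 in the experimental horses (1.25, SE 0.31, adjusted p = 0.0392 in limma) and by 1.09 in the validation set (SE 0.14, adjusted p = 8.8e-06), with 13 of 13 T1 horses above the highest T0 horse. *BAG2*, a nucleotide exchange factor that is known to inhibit the ubiquitin ligase CHIP, was the 1 gene of the 5 that fell. Its change in the experimental horses was −1.22, −1.46 and −1.12 (−1.26, SE 0.31, adjusted p = 0.0391 in limma), and in the validation set −1.50 (SE 0.21, adjusted p = 1.86e-05), with 13 of 13 T1 horses below the lowest T0 horse. The size of this change depended on the normalization: with normexp it was −0.57 in the experimental set (adjusted p = 0.0504 in limma) and −0.67 in the validation set (adjusted p = 6.12e-06), and with the deposited series values −0.61 (adjusted p = 0.0481) and −0.69 (adjusted p = 7.48e-06). Of the 13 alternative settings of the experimental set, 8 kept the call of *BAG2*. On the 5 scan days that held both times, T1 was higher on all 5 for *FKBP5* (2.80 to 4.31), *HSBP1* (0.69 to 2.10), *DDIT3* (0.87 to 1.68) and *DNAJC13* (0.84 to 1.75) and lower on all 5 for *BAG2* (−2.68 to −1.09). These are validation arrays on which the genes were chosen, so a shared direction follows in part from that choice. The share of all gene names with a shared direction was not counted. In the experimental set the calls of *DDIT3*, *BAG2* and *DNAJC13* were lost without horse 2 (1.38, −1.29 and 1.28, adjusted p = 0.124, 0.136 and 0.136 in limma) and without horse 32 (1.25, −1.17 and 1.31, adjusted p = 0.0982, 0.121 and 0.0837). That of *HSBP1* was lost without horse 2 (1.81, adjusted p = 0.0768 in limma), and that of *DNAJC13* also without horse 41 (1.18, adjusted p = 0.0522).

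**Figure D5:**
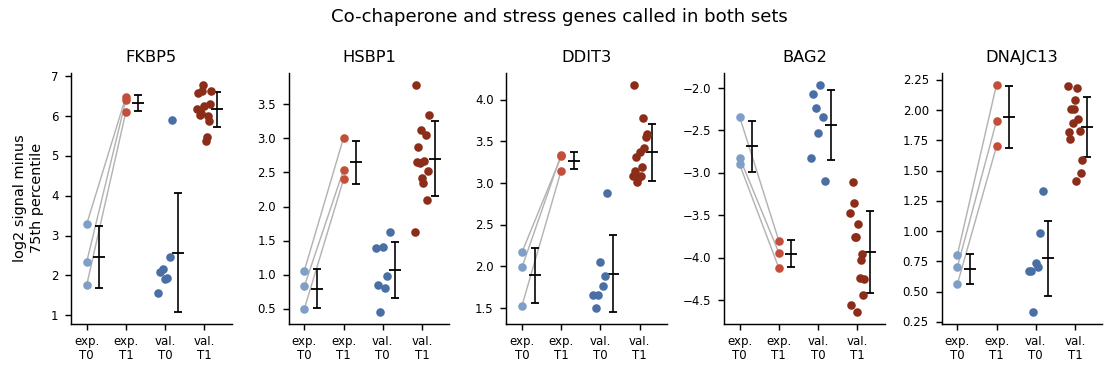
Levels (log2 signal scaled to the 75th percentile of the array, a separate scale for each gene) of the 5 further chaperone and stress genes that passed in both sets, in the experimental (exp.) and validation (val.) sets at T0 and T1. Points are horses, grey lines join the same horse, and bars give the mean ± SD. *HSBP1*, *DDIT3* and *DNAJC13* had all 13 T1 validation horses above the highest T0 horse, *BAG2* had all 13 below the lowest, and the high T0 point of *FKBP5* is horse 47 at 5.91. The genes were chosen for passing in both sets, and the share of all gene names that separate in this way was not counted.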

How the data were processed

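Whole-blood RNA of 23 horses was measured on 26 Agilent arrays of 1 colour. The authors deposited scanner files with intensity values from Feature Extraction 10.7.3.1, background-corrected but without normalization between arrays. They also deposited a series table of log2 values, whose normalization is not given in the sources used here and which served as an alternative. Control spots and outlier spots were left out, spots of a probe were averaged, the log2 intensity was reduced by the array's 75th percentile, and the brightest of a gene name's probes was used (43384 probes, 24415 gene names).

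Gene names well above background on at least 3 experimental or 7 validation arrays were tested in R 4.3.3 with limma 3.58.1, helped by the packages data.table (1.17.8) and statmod (1.5.0), with Benjamini-Hochberg adjustment over all of them and a threshold of 0.05. The experimental fit had the horse as a block, since the labels give both arrays of a pair the same animal, and the validation fit had none. The deviations of a horse's arrays from the group means correlated across 17490 gene names with r of −0.00817 (horse 2), 0.212 (horse 32) and 0.192 (horse 41). The difference between the sets was fitted on all arrays, with a consensus correlation within horses of −0.0562.

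The genes and lists were chosen with earlier results of these data known. Named were the genes of the list, the other listed genes that passed in both sets in the same direction, at most 10, and for *HSPA1A*, *HSPA5* and *HSF1* the 3 gene names of highest r. A few genes that meet these rules are not reported here. Symbols came from the array for 6767 gene names, from its descriptions for 38, from the study's files for 2261 and from the reference table for 6560, and 8789 had none. Tested on simulated data with 200 changed genes, the validation fit recovered 16% of changes of 0.5 (log2), 76% of 1 and 96% of 2, and the experimental fit 0% of these and 58% of changes of 4. In the real data 1794 and 7692 gene names passed in the experimental and validation sets, so the adjustment was stricter in the simulation. Its rates therefore do not carry over to the real data, where the experimental fit called *HSPH1* at 1.91. Plots were drawn with matplotlib 3.10.9 in Python 3.11.15. As alternatives, signals were quantile normalized, with or without normexp (offset 50), or replaced by the series values. The filter was dropped or set to every array, probes were averaged, the replicate block was dropped, all arrays were fitted together, scan day, slide or sex entered the model, and horses were left out. Keeping outlier spots, scan day in the single fit, leaving out scan day 2 and most of the left-out validation horses were added after the data were seen.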

Additional observations from a re-analysis of the deposited data

Results flagged for a closer look

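Validation horse 47 stood apart from the other 6 validation horses at T0 in 3 of the 14 genes examined there, by the gap of its level to the next horse relative to the range of the group, which chance exceeds in about 1 of 20 groups (Dixon's test, n = 7). Its level was 5.91 for *FKBP5*, where the next horse had 2.47, 2.68 for *HSPA1A*, where the next had 1.91, and 2.88 for *DDIT3*, where the next had 2.05. The same T0 array had the highest summed levels of the neutrophil genes (9.37), the monocyte genes (8.25) and the erythroid genes (8.35) of its group and the lowest of the T cell genes (4.66), and their part in its chaperone levels was not tested. Without horse 47 the validation change was 0.94 for *HSPA1A* (adjusted p = 0.0137 in limma), 0.55 for *HSPA8* (adjusted p = 0.0402) and 0.76 for *HSP90AA1* (adjusted p = 0.0315).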

How the results depend on the processing

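The count of gene names that passed in the experimental set, 1794, was 2938 with all 26 arrays in a single fit, 46 with no filter and 2838 with a filter on every array, and 180 without horse 2, 831 without horse 32 and 3218 without horse 41. The replicate block moved it little (1791 without it), but without the block *HSPA1A* missed the threshold there (adjusted p = 0.147 in limma). The share of over-expressed genes among those calls was 60.6% (1088 and 706) and became 48.2% with normexp (1150 and 1235), 49.5% with quantile normalization (1005 and 1027), 47.7% with the series values (1059 and 1163) and 73.6% with scan day in the single fit (1266 and 453). Of the 9 chaperone genes, 2 passed in the experimental set; 0 passed with no filter or with scan day in the single fit, 1 with no replicate block or with quantile normalization, 4 with normexp or a filter on every array, and 0 to 3 with a horse left out. In the validation set 5 passed. With the single fit, with or without scan day, the series values, normexp, quantile normalization, sex or slide, 3 passed, and 3 to 6 passed with a horse left out. With scan day as a term 2 passed, *HSP90AB1* and *HSF1*, both under-expressed, so that none of the over-expressed calls was kept. *HSF1* was not among the 5. Opposite signs were found for 2 validation differences that passed under no setting: *DNAJB1* was −0.10 with scan day in the single fit, −0.17 with scan day as a term, −0.05 without scan day 2 and between −0.05 and 0.22 with a horse left out, and *HSPD1* was −0.04 with the series values, −0.02 with normexp, −0.01 with quantile normalization, −0.03 with scan day as a term, −0.03 without scan day 2 and between −0.01 and 0.16 with a horse left out. The cause of these shifts was not tested, apart from the fewer horses or other gene names that an alternative brings by construction. *HSPH1* kept its validation call under 33 of 34 alternatives and *HSP90AB1*, *FKBP5*, *HSBP1*, *DDIT3*, *DNAJC13* and *BAG2* under 34.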
